A study of Homo sapiens with 24 samples.

Results

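NFE2L2 encodes NRF2, the transcription factor that cells use to answer oxidants and electrophiles. The genes described here are NFE2L2 and 9 others of glutathione synthesis and of the NRF2 response, namely GCLC, GCLM, GSR, GSS, TXNRD1, SRXN1, HMOX1, NQO1 and GPX2. They were taken by symbol from a table of 23368 genes, all 10 were found, and all 10 were among the 13947 genes tested. The libraries came from AGS, an established human gastric adenocarcinoma cell line whose genotype is labelled WT, harvested after 24 h. The 6 groups of 4 libraries were a control, 3 single agents and 2 combinations. The single agents were PI103 at 0.7 µM, PD0325901 at 0.035 µM and (5Z)-7-oxozeaenol, oxozeaenol from here on, at 0.5 µM. PI103 was combined with oxozeaenol (the oxozeaenol combination) and with PD0325901 (the PD0325901 combination). Each agent of a combination was at 50% of the concentration it had alone. No group held an agent alone at that lower concentration. A difference of a combination from a single agent therefore mixes the lower concentration with the added agent. The mean of the log2 changes of the single agents serves below as a reference. A departure from it cannot tell interaction from the shape of the dose response. PI103 targets PI3 kinases and mTOR, PD0325901 targets MEK, and oxozeaenol targets TAK1. Whether the agents also act on other kinases was not tested. Whether the control cells received a vehicle is not given. All groups share the line and the growth medium, Ham's F12 with serum, and the replicate number of a library is labelled as its batch.

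In unstressed cells KEAP1, an adaptor of the CUL3 ubiquitin ligase, holds NRF2 and passes it to the proteasome. Oxidants and electrophiles modify KEAP1, NRF2 then accumulates, pairs with a small MAF protein and binds antioxidant response elements near its targets, and BACH1 competes for some of the same elements. Control of NRF2 therefore acts largely on the protein, which was not measured here. Glutathione is made from glutamate, cysteine and glycine by glutamate-cysteine ligase (catalytic subunit GCLC, modifier subunit GCLM) and glutathione synthetase (GSS), and its oxidised form is reduced by glutathione reductase (GSR).

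The 10 genes did not move as a block. NFE2L2 itself fell to between 46.6% and 50.9% of its control level in all 5 treatments, and TXNRD1, GCLM and GSR were called lower in all 5 as well. HMOX1 rose 3.75-fold with PD0325901 and fell with PI103, while NQO1 and GPX2 were called higher in 4 treatments, those with PD0325901 or oxozeaenol. Of 13947 genes tested, 13.5% were called lower in all 5 treatments and 11.5% higher in all 5. Among the 10 genes 4 were lower in all 5 and 0 were higher in all 5.

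Counts in genes per library ranged from 38057638 to 84226380. Levels are given in CPM, counts scaled to a common library size, and changes as differences on the log2 scale with standard error (SE). A gene is called at an adjusted p under 0.05 in the quasi-likelihood F test of edgeR, adjusted by Benjamini-Hochberg over all 13947 genes, and every adjusted p below is from that test. The 5 treatments share the 4 control libraries, so their changes against control are not independent of each other. The 6 epithelial markers looked up were high in all libraries, EPCAM at 619 to 988 CPM and KRT8 at 2110 to 3590 CPM. Of the gastric markers, TFF1 lay at a median of 8.25 CPM, GKN1 was at 0 in every library, and CLDN18 did not exceed 1.25 CPM. PTPRC of leukocytes, DCN of fibroblasts and CDH5 of endothelium reached at most 0.101 CPM in any library, although LYZ (37.7 to 466 CPM) and COL1A1 (7.93 to 34.2 CPM) were measured.

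**Figure D1:**
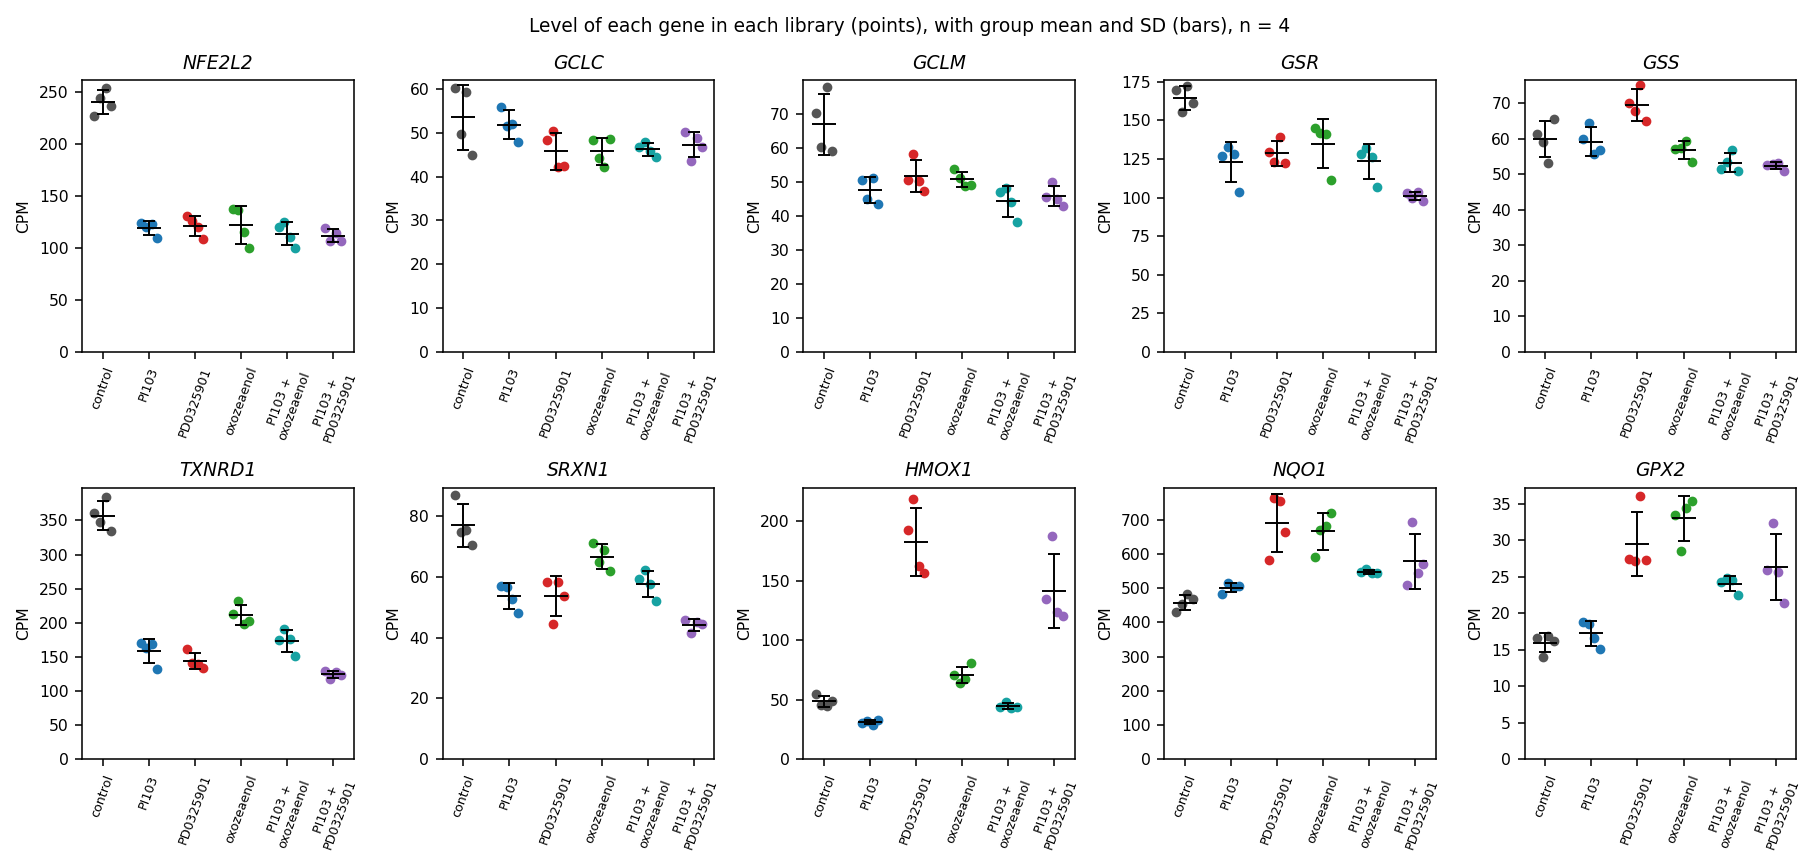
Level of each of the 10 genes in CPM (y axis, from 0) in the 6 groups (x axis). Each point is 1 library, the bars are the mean and SD of 4, and NFE2L2 shows 4 control libraries between 226 and 253 CPM above 20 treated libraries that reach at most 137 CPM.

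The sequences below are shown because antioxidant response elements are the sites that NRF2 is known to bind. RefSeq windows of 300 bases (GRCh38.p14, from 250 bases before to 50 after a start) were matched by symbol for 7 of the 10 genes, 9 windows in all. The core letters TGACNNNGC, searched on both strands, were found in 4 windows of 3 genes (GCLM, TXNRD1 and GPX2), and in 13.3% of all 35116 windows. The AP-1 letters TGANTCA were in none of the 9 windows and in 7.71% of all windows. On the other strand the core reads GCNNNGTCA. Each line gives 49 bases in the direction of the gene, 5′ to 3′, with the match in capitals.

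GCLM, chr1:93909436-93909484, minus strand, match beginning 34 bases before the start: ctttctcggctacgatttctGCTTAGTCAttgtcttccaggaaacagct
TXNRD1, chr12:104215660-104215708, plus strand, upstream start, match beginning 99 bases before it: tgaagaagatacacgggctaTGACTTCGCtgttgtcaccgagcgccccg
TXNRD1, chr12:104215751-104215799, plus strand, upstream start, match beginning 8 bases before it: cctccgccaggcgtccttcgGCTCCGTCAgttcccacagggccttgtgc
TXNRD1, chr12:104286910-104286958, plus strand, downstream start, match beginning 102 bases before it: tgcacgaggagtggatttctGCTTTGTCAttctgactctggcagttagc
GPX2, chr14:64942839-64942887, minus strand, match beginning 122 bases before the start: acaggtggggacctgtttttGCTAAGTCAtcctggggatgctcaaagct

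These windows are descriptions of sequence and no binding was measured. Of the genes that hold a match, GCLM and TXNRD1 were called lower in all 5 treatments and GPX2 was called higher in 4. Windows of NFE2L2, GCLC, SRXN1 and NQO1 hold no match to these letters. Sequence further than 250 bases before a start was not searched, so elements there would be missed.

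NFE2L2 (chromosome 2, 177227595 to 177392697, minus strand, GENCODE 29 on GRCh38) is the regulator of the group. In control its level was 226, 244, 253 and 236 CPM in replicates 1 to 4. With PI103 it was 123, 120.2, 123 and 109 CPM, and with PD0325901 131, 126, 120.1 and 108 CPM. The 4 controls thus lay far above all treated libraries, and the treated groups lay over one another. Oxozeaenol gave 137, 137, 115 and 99.8 CPM, the widest spread of the 6 groups. The combinations gave 119.9, 125, 109.9 and 99.5 CPM with oxozeaenol and 119, 107, 115 and 106 CPM with PD0325901. The change of NFE2L2 with PI103 was -1.01 (SE 0.0941, adjusted p = 2.16e-09), and the gene was lower in 4 of 4 batches in each treatment.

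The fall of NFE2L2 was of similar size throughout: it fell by 0.98 with PD0325901, by 0.97 with oxozeaenol, by 1.08 in the oxozeaenol combination and by 1.10 in the PD0325901 combination, with adjusted p from 1.79e-10 to 4.73e-09. None of the differences between treatments that were tested was called. PI103 and PD0325901 differed by -0.03 (95% interval -0.22 to 0.17), PI103 and oxozeaenol by -0.04 (-0.23 to 0.15), and oxozeaenol and PD0325901 by 0.01 (-0.18 to 0.20). The combinations lay below their single agents by no more than 0.12, again with intervals that include 0. In bulk libraries less transcript per cell and fewer cells with the transcript cannot be told apart. Of the exon length of NFE2L2, 17.6% overlaps another gene on the same strand in GENCODE 29, so part of its reads may have been set aside as ambiguous.

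With PI103, 0 of the 10 genes were called higher and 6 lower, where 26.2% of all genes were called higher and 25.2% lower. PD0325901 gave 4 higher and 6 lower (28.7% and 29.9% of all genes), and oxozeaenol 3 higher and 5 lower (25.7% and 26.1%). The combination of PI103 with oxozeaenol gave 2 higher and 7 lower (27.7% and 27.9%), and that with PD0325901 gave 3 higher and 6 lower (32.2% and 32.6%). Their median change was -0.46 with PI103, -0.29 with PD0325901, -0.22 with oxozeaenol, -0.31 in the oxozeaenol combination, and -0.37 in the PD0325901 combination. The median over all genes tested lay between -0.02 and 0.02 in these comparisons. The libraries of a treatment did not overlap those of control, in either direction, in 7 of the 10 with PI103 (48.9% of all genes), 8 with PD0325901 (49% of all genes), 7 with oxozeaenol (42.2%), 7 in the oxozeaenol combination (52.6%), and 9 in the PD0325901 combination (56.9%).

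**Figure D2:**
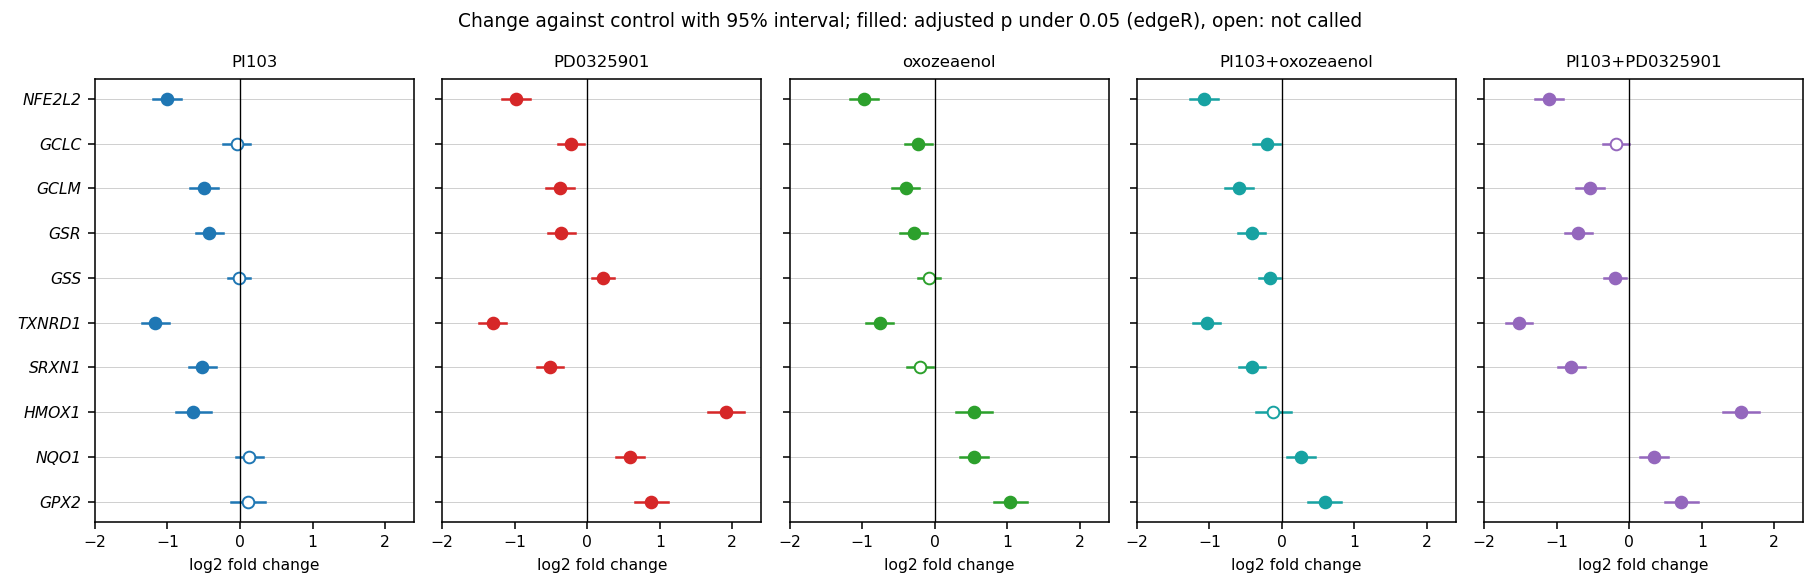
Change of each gene against control on the log2 scale (x axis) in the 5 treatments (panels), with 95% intervals from edgeR, filled where called and open where not. NFE2L2 sits near -1 in all panels, and HMOX1 moves from -0.64 with PI103 to 1.91 with PD0325901.

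Of the subunits of glutamate-cysteine ligase, the modifier was called lower in all 5 treatments and the catalytic one in 3. GCLM (chromosome 1, 93885205 to 93909456, minus strand) held 59.0 to 77.9 CPM in control and 38.1 to 58.3 CPM over the 20 treated libraries, which therefore all lay below the lowest control. It fell by 0.49 (SE 0.0933, adjusted p = 8.63e-05) with PI103, by 0.37 (adjusted p = 0.0012) with PD0325901, by 0.40 (adjusted p = 0.000849) with oxozeaenol, by 0.59 (adjusted p = 6.67e-06) in the oxozeaenol combination, and by 0.54 (adjusted p = 1.43e-05) in the PD0325901 combination. No difference between treatments was called for GCLM. GCLC (chromosome 6, 53497341 to 53616970, minus strand), the subunit that carries the active site, held 44.9 to 60.3 CPM in control, a range that overlapped every treated group. It was called lower with PD0325901 (-0.22, adjusted p = 0.0319), with oxozeaenol (-0.22, adjusted p = 0.0362) and in the oxozeaenol combination (-0.21, adjusted p = 0.0447). Each of these 3 calls of GCLC was lost in 6 to 8 of 14 alternative fits, among them those without control replicate 1 or 3. With PI103 GCLC changed by -0.05 (95% interval -0.23 to 0.14).

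GSS (chromosome 20, 34928433 to 34956027, minus strand) adds glycine in the last step of glutathione synthesis. Control libraries averaged 59.8 ± 5.11 CPM (SD, n = 4), and GSS was the glutathione gene with calls in both directions. It rose by 0.22 (SE 0.0726, adjusted p = 0.0128) with PD0325901, to 69.5 ± 4.38 CPM (SD, n = 4), a call that was lost without PD0325901 replicate 3 (0.18, adjusted p = 0.0511). The value was -0.17 (adjusted p = 0.049) in the oxozeaenol combination and -0.19 (adjusted p = 0.0223) in the PD0325901 combination, and leaving out control replicate 4, the highest control, gave adjusted p of 0.179 and 0.0943. The first was also lost without control replicate 1 or 2 or without replicate 1, 2 or 4 of that combination (adjusted p = 0.0714 to 0.137). The second was also lost without replicate 4 of its combination (adjusted p = 0.0515). With upper-quartile scaling the 2 values were -0.10 (adjusted p = 0.249) and -0.05 (adjusted p = 0.546). With only the groups compared, adjusted p was 0.09 and 0.0643. In 4 of the 5 treatments the GSS libraries overlapped control, PI103 with PD0325901 being the other. The combination of PI103 with PD0325901 was lower than PD0325901 alone, with a difference of -0.41 (SE 0.0727, adjusted p = 0.000377), and those libraries did not overlap: 50.9 to 53.0 against 64.9 to 75.2 CPM. PI103 and oxozeaenol alone gave GSS changes of -0.01 and -0.07, neither of them called.

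GSR (chromosome 8, 30678061 to 30727999, minus strand), which uses NADPH to regenerate reduced glutathione, was lower in every treated library than in any control. Control held 155.5 to 172 CPM. The fall was 0.42 or less on the log2 scale in 4 treatments, with values of -0.42 (PI103, adjusted p = 0.000308), -0.36 (PD0325901, adjusted p = 0.0013), -0.29 (oxozeaenol, adjusted p = 0.00913) and -0.42 (the oxozeaenol combination, adjusted p = 0.000325). Without oxozeaenol replicate 4, at 111 CPM against 141 to 145 in the others, the change with oxozeaenol was -0.21 (adjusted p = 0.0536). PI103 with PD0325901 gave 103, 99.6, 104 and 97.9 CPM, close together and the lowest of the 6 groups, a fall of GSR by 0.70 (SE 0.0899, adjusted p = 1.78e-07). That was below PI103 alone by -0.28 (adjusted p = 0.0148) and below PD0325901 alone by -0.35 (adjusted p = 0.00896). The first of these was lost without PI103 replicate 2 (-0.24, adjusted p = 0.0571).

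TXNRD1 (chromosome 12, 104215779 to 104350305, plus strand) encodes cytosolic thioredoxin reductase, a selenoenzyme that keeps thioredoxin reduced. Control held 361, 348, 385 and 334 CPM. The 4 libraries with PI103 held 171, 163.5, 168.5 and 132 CPM, and those with PD0325901 held 162, 142, 139.5 and 134 CPM. All treated libraries were below all controls, and TXNRD1 with oxozeaenol (212, 232, 198 and 202 CPM) was above both other single agents. Its falls were the largest among the 10 genes in 3 of the 5 treatments. It fell by 1.17 (SE 0.0896, adjusted p = 7.98e-11) with PI103, by 1.31 (SE 0.0899, adjusted p = 6.43e-12) with PD0325901 and by 0.76 (SE 0.0889, adjusted p = 1.1e-07) with oxozeaenol, in 4 of 4 batches each. Oxozeaenol differed from PD0325901 by 0.55 (adjusted p = 6.78e-05) and PI103 from oxozeaenol by -0.41 (adjusted p = 0.000548).

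In the combinations TXNRD1 fell by 1.04 (adjusted p = 4.31e-10) in the oxozeaenol combination, and by 1.52 (SE 0.0904, adjusted p = 2.89e-13) in the PD0325901 combination, where it held 129, 117, 128 and 123 CPM. PI103 with PD0325901 was below the mean of the log2 changes of its single agents by -0.28 (adjusted p = 0.011). Without replicate 2 of that combination the departure of TXNRD1 was -0.26 (adjusted p = 0.0565). It was below PI103 alone by -0.35 (adjusted p = 0.00268). Against PD0325901 alone the difference was -0.21 (adjusted p = 0.0944, and 0.04 with the replicate number as a block).

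SRXN1 (chromosome 20, 646615 to 653370, minus strand) encodes sulfiredoxin, which restores over-oxidised peroxiredoxins. In GENCODE 29, 85% of its exon length lies within another gene on the same strand, and its counts are uncertain where that gene was counted too. The mean of SRXN1 over the controls was 76.9 ± 7.10 CPM (SD, n = 4). PI103 brought 53.7 ± 4.196 CPM (SD, n = 4), and PD0325901 also gave a mean of 53.7 ± 6.53 CPM (SD, n = 4). It fell by 0.52 with each of them (adjusted p = 2.29e-05 and 1.74e-05), by 0.41 (adjusted p = 0.000302) in the oxozeaenol combination and by 0.80 (SE 0.0887, adjusted p = 1.8e-08) in the PD0325901 combination. The last group, at 41.5 to 45.8 CPM, was below PI103 alone by -0.28 (adjusted p = 0.0145), and without its replicate 2 that difference was -0.25 (adjusted p = 0.0525). With oxozeaenol the value was -0.21 (adjusted p = 0.0528, and 0.0243 with the replicate number as a block). Oxozeaenol and PD0325901 differed by 0.31 (adjusted p = 0.0102), a call lost without PD0325901 replicate 2 (0.21, adjusted p = 0.109) or oxozeaenol replicate 1 (0.25, adjusted p = 0.0569).

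HMOX1 (chromosome 22, 35380361 to 35394214, plus strand) encodes heme oxygenase 1, which breaks heme down to biliverdin, iron and carbon monoxide. Its level in control was 55.0, 45.7, 44.9 and 48.7 CPM. With PD0325901 it was 192, 219, 162 and 156 CPM, and with PI103 it was 30.6, 32.0, 29.1 and 32.7 CPM. The groups did not overlap, and they stood on opposite sides of control. Oxozeaenol gave 70.7, 64.3, 67.5 and 80.7 CPM, also above every control. HMOX1 rose by 1.91 (SE 0.122, adjusted p = 1.71e-12) with PD0325901 and by 0.54 (SE 0.119, adjusted p = 0.000437) with oxozeaenol, and fell by 0.64 (SE 0.119, adjusted p = 6.73e-05) with PI103, each in 4 of 4 batches. PI103 differed from PD0325901 by -2.55 (SE 0.125, adjusted p = 1.03e-13) and from oxozeaenol by -1.19 (adjusted p = 1.89e-08), and oxozeaenol differed from PD0325901 by -1.36 (adjusted p = 1.05e-08).

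In the combinations HMOX1 went 2 ways. PI103 with oxozeaenol gave 43.8, 48.3, 43.2 and 43.8 CPM, overlapping control, with a change of -0.12 (95% interval -0.36 to 0.12, adjusted p = 0.41). That level was above PI103 alone by 0.53 (adjusted p = 0.00246) and below oxozeaenol alone by -0.66 (adjusted p = 0.000483), and it departed from the mean of the single agents by -0.07 (95% interval -0.28 to 0.14). PI103 with PD0325901 gave 135, 187, 124 and 120.3 CPM, a rise of HMOX1 by 1.54 (SE 0.120, adjusted p = 3.51e-11). This was above the mean of the single agents by 0.91 (SE 0.0992, adjusted p = 3.75e-07) and above PI103 alone by 2.19 (SE 0.123, adjusted p = 1.64e-12). Against PD0325901 alone HMOX1 differed by -0.37 (adjusted p = 0.0313), a call that was lost without PD0325901 replicate 1 or 2 or without replicate 1, 3 or 4 of the combination (adjusted p = 0.066 to 0.107).

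NQO1 (chromosome 16, 69706996 to 69726951, minus strand) encodes a quinone reductase that uses NADPH or NADH and is a common readout of NRF2. In control it held 431, 452, 482 and 467 CPM. It reached 581, 764, 753 and 665 CPM with PD0325901 and 591, 671, 682 and 719 CPM with oxozeaenol, above every control library. NQO1 rose by 0.59 (SE 0.0940, adjusted p = 6.24e-06) and by 0.54 (SE 0.0939, adjusted p = 3.15e-05) in these groups. With PI103 it held 483 to 515 CPM, a range just above that of control, and its change was 0.13 (95% interval -0.06 to 0.32, adjusted p = 0.252). PI103 differed from PD0325901 by -0.46 (adjusted p = 0.000242) and from oxozeaenol by -0.41 (adjusted p = 0.00102). Of the exon length of NQO1, 17.7% lies opposite an antisense gene.

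The combinations lay between their single agents for NQO1. It rose by 0.34 (adjusted p = 0.00276) in the PD0325901 combination and by 0.26 (adjusted p = 0.0209) in the oxozeaenol combination, and the latter call was lost without control replicate 1 (0.23, adjusted p = 0.0596). PI103 with oxozeaenol was below oxozeaenol alone by -0.28 (adjusted p = 0.0426), which was lost when any 1 of the 8 libraries was left out other than oxozeaenol replicate 1. PI103 with PD0325901 differed from PD0325901 by -0.26 (adjusted p = 0.0574, and 0.0179 with the replicate number as a block) and from PI103 by 0.21 (adjusted p = 0.083, and 0.0376 with the block).

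GPX2 (chromosome 14, 64939152 to 64942905, minus strand) encodes a glutathione peroxidase of the gut epithelium, a selenoenzyme that spends glutathione on hydroperoxides. Control held 16.7, 14.01, 16.9 and 16.2 CPM, and PI103 gave 18.8, 18.5, 16.6 and 15.1 CPM, which overlapped it. Oxozeaenol gave 33.5, 28.5, 34.4 and 35.4 CPM and PD0325901 gave 27.4, 27.1, 36.1 and 27.3 CPM, both above all controls. GPX2 rose by 1.04 (SE 0.113, adjusted p = 2.83e-08) with oxozeaenol, which is 2.06-fold, and by 0.89 (SE 0.112, adjusted p = 2.33e-07) with PD0325901, in 4 of 4 batches each, and these agents did not differ in the test (0.16, 95% interval -0.07 to 0.39). With PI103 its change was 0.11 (95% interval -0.12 to 0.34, adjusted p = 0.423). PI103 differed from oxozeaenol by -0.93 (adjusted p = 3.04e-07) and from PD0325901 by -0.77 (adjusted p = 3.64e-06).

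In the oxozeaenol combination, GPX2 held 22.5 to 24.8 CPM and rose by 0.59 (SE 0.112, adjusted p = 7.83e-05). That was above PI103 by 0.48 (adjusted p = 0.0032), below oxozeaenol by -0.45 (adjusted p = 0.00713) and 0.01 (95% interval -0.19 to 0.21) from the mean of these agents. In the PD0325901 combination it held 21.4 to 32.3 CPM, rose by 0.72 (adjusted p = 3.76e-06), and lay 0.22 above the mean (adjusted p = 0.0955, which was 0.0352 without PD0325901 replicate 3 and 0.033 without replicate 4 of the combination).

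**Figure D3:**
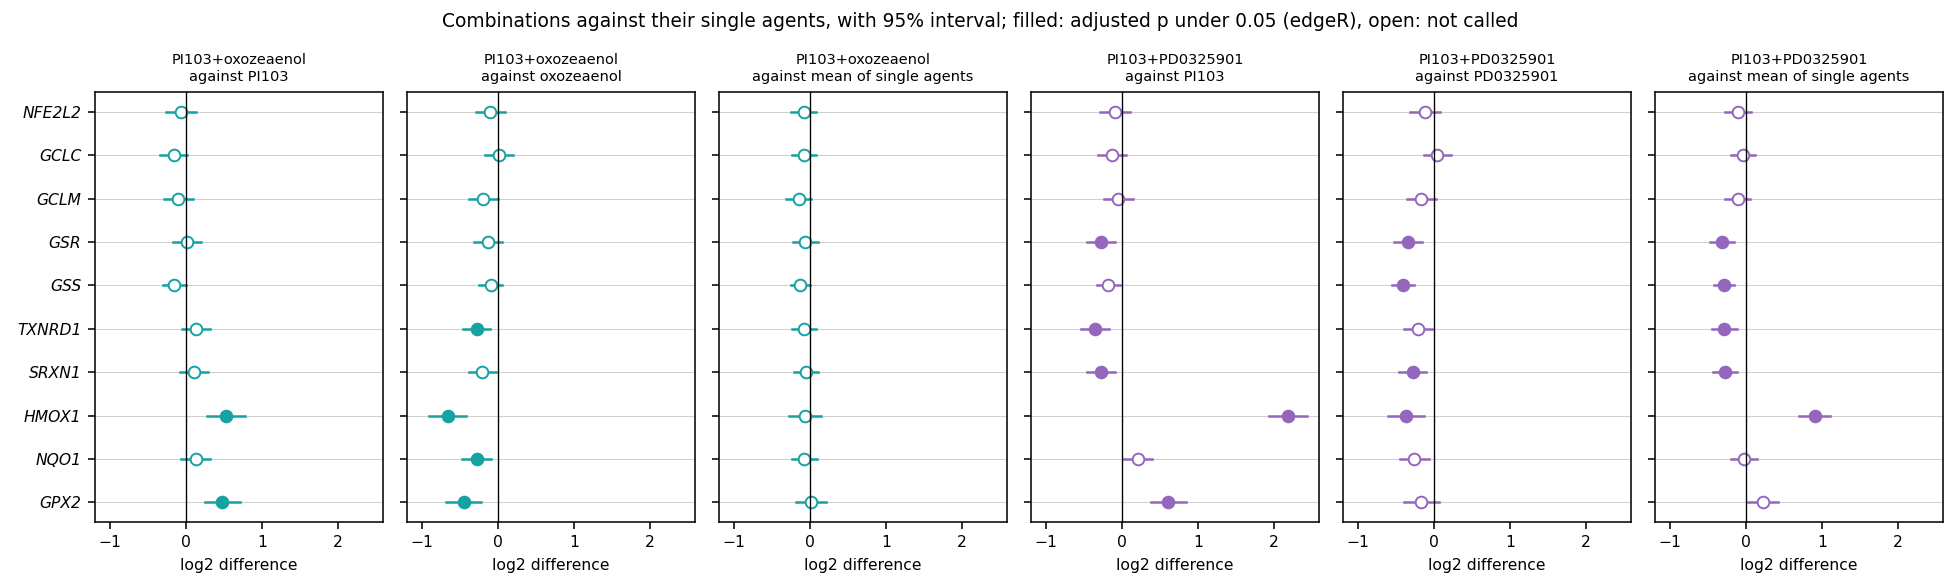
Difference of each combination from each of its single agents and from the mean of their effects (panels), on the log2 scale (x axis) with 95% intervals from edgeR, filled where called. For PI103 with oxozeaenol all 10 open points lie near 0 against the mean, whereas HMOX1 stands at 0.91 against the mean for PI103 with PD0325901.

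Over the 10 genes, PI103 with oxozeaenol departed from the mean of its single agents in 0 genes by edgeR (0 at an unadjusted p under 0.05, and 0 by DESeq2), where 3.98% of all genes did. It differed from PI103 in 2 genes (18.3% of all genes), HMOX1 and GPX2, and from oxozeaenol in 4 (14.9%), HMOX1, GPX2, NQO1 and TXNRD1, a count that was 2 without oxozeaenol replicate 2 or without replicate 1, 3 or 4 of the combination. For PI103 with PD0325901 a departure from the mean of the single agents was called in 5 genes (22% of all genes), with HMOX1 higher and GSR, GSS, TXNRD1 and SRXN1 lower. Leaving out its replicate 2 gave 3 genes. Interaction of the agents was not tested, since no group held an agent alone at 50% of its full concentration. For this combination against PI103 alone 5 of the 10 were called (38.7% of all genes), and against PD0325901 alone 4 (18.1%), or 2 when replicate 4 of the combination was left out. Between single agents, PI103 and PD0325901 differed in 4 genes (44.5%), PI103 and oxozeaenol in 5 (43.1%), and oxozeaenol and PD0325901 in 4 (28.5%).

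Across the 24 libraries some of the genes had similar profiles, given here as a description since all libraries share the treatments. The log2 CPM of TXNRD1 correlated with that of SRXN1 at Pearson r = 0.908, with that of NFE2L2 at 0.889 and with that of GSR at 0.872. GSR correlated with SRXN1 at 0.902, NFE2L2 with GCLM at 0.863, and NQO1 with GPX2 at 0.859. GCLC and NQO1 gave the lowest value, -0.62, and NFE2L2 with GPX2 gave -0.57. Outside the group, the genes most like each member in log2 CPM were sought among 10030 genes with a mean of at least 5 CPM. They were ZNF295 and NFXL1 for NFE2L2 (both r = 0.979), PPPDE1 (0.975) and AP1AR (0.965) for TXNRD1, PCSK7 (0.972) and TP53INP2 (0.959) for HMOX1, and MARS2 (0.97) and NIP7 (0.966) for SRXN1. For GSR they were IMMT (0.963) and MRPS30 (0.957), for GCLM ITCH (0.954), and for NQO1 GDPD3 (0.951) and ACSS2 (0.943). For GPX2 they were LPCAT3 (0.936) and ZDHHC14 (0.935), for GCLC CNOT6 (0.913) and FOXJ3 (0.886), and for GSS ADA (0.87) and DCXR (0.831).

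The counts for other genes of the pathway are read against all genes tested, of which 25.7% to 32.2% were called higher and 25.2% to 32.6% lower in the 5 treatments. A gene named below under some treatments may have changed in the others too. Of 14 genes that control NRF2, all tested, 5 were called lower and 1 higher with PI103, 6 and 3 with PD0325901, 6 and 2 with oxozeaenol, 6 and 1 in the oxozeaenol combination, and 6 and 2 in the PD0325901 combination. That is 35.7% to 42.9% of the list called lower and 7.14% to 21.4% higher, with list medians between -0.02 (PI103) and -0.21 (oxozeaenol). MAFF, a small MAF partner of NRF2, fell most, averaging 43.9 ± 8.998 CPM (SD, n = 4) over the controls against 2.26 ± 0.520 CPM (SD, n = 4) under PD0325901, a change of -4.28 (adjusted p = 1.31e-12), and by -1.21 (adjusted p = 4.27e-05) with PI103. KEAP1, which holds NRF2 for degradation, was called higher in all 5 treatments, from 0.27 with PD0325901 to 0.62 (adjusted p = 2.29e-05) with PI103. The KEAP1 libraries overlapped control with PD0325901, with oxozeaenol and in the PD0325901 combination. Without control replicate 2 or 4 or PD0325901 replicate 3 the call of KEAP1 with PD0325901 was lost (adjusted p = 0.0905 to 0.14). It was also lost with no filter on low counts (adjusted p = 0.051). BACH1, MAFG, MAFK and NFE2L1, named after their values were seen and not refitted under the alternatives, were called lower in all 5 treatments, with changes of BACH1 from -0.41 to -0.92. SQSTM1, an autophagy receptor that binds KEAP1, rose by 0.43 (adjusted p = 0.00021) with PD0325901. RBX1, a ring subunit of the ligase, rose by 0.67 (adjusted p = 0.00271) with oxozeaenol.

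A further list held other NRF2 targets (22 of 23 tested). With PI103, 4 were called higher and 11 lower (18.2% and 50% of the list, against 26.2% and 25.2% of all genes, list median -0.29). PD0325901 gave 9 higher and 5 lower (40.9% and 22.7%, against 28.7% and 29.9%, median 0.18), and oxozeaenol 10 higher and 3 lower (45.5% and 13.6%, against 25.7% and 26.1%, median 0.40). Each combination gave 7 higher and 7 lower (31.8% each way), near the shares of all genes, with medians of 0.03 and 0.11. Differences between treatments were not tested for the list as a whole. ABHD4 rose by 1.33 (adjusted p = 8.44e-11) with PD0325901, CBR1, a carbonyl reductase, rose by 0.99 (adjusted p = 3.32e-08) with oxozeaenol, and ABCC3, an organic anion exporter, rose by 1.33 (adjusted p = 5.55e-09) with PI103. The mean of ABCC3 was also 312.6% of control in the oxozeaenol combination and 255.9% in the PD0325901 combination, against 146.1% with oxozeaenol and 109.5% with PD0325901. OSGIN1 fell by 1.09 (adjusted p = 4.83e-08) with PI103, and AKR1B1, an aldose reductase, fell by 0.66 (adjusted p = 3.5e-05) with PD0325901 and by 0.42 (adjusted p = 0.00419) with oxozeaenol.

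Of 7 genes that supply glutathione with its precursors 6 were tested, and 4 were called lower with PI103, 4 with PD0325901, and 5 in each of the other 3 treatments (66.7% or 83.3% of the list, against 25.2% to 32.6% of all genes). Their median change was -1.89 with PI103, -0.90 with PD0325901, -0.83 with oxozeaenol, -1.50 in the oxozeaenol combination, and -1.95 in the PD0325901 combination. SLC7A11, the cystine importer, fell by 5.72 (SE 0.546, adjusted p = 4.29e-08) with PI103, its mean going from 374 ± 47.3 CPM (SD, n = 4) in control down to 7.11 ± 1.23 CPM (SD, n = 4). It fell by 2.22 (adjusted p = 0.000353) with PD0325901 and by 6.08 (adjusted p = 9.85e-09) in the PD0325901 combination. SLC7A11 was also at 26.1% of control with oxozeaenol and at 5.26% in the oxozeaenol combination. CTH, which makes cysteine from cystathionine, fell by 2.29 (adjusted p = 4.16e-06) with oxozeaenol and changed by -4.67 (adjusted p = 6.28e-10) in the oxozeaenol combination, or by -5.28 without replicate 2 of that combination. Its mean was lowest with PI103, at 2.37% of control, against 20.4% with oxozeaenol, 24.9% with PD0325901 and 3.95% in the PD0325901 combination. Both genes are also known as targets of ATF4, as are CHAC1, SESN2 and MTHFD2 below. CBS, named after its values were seen and at a mean of 1.352 CPM, was called higher, by 0.78 with PD0325901 and 1.10 with oxozeaenol.

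**Figure D4:**
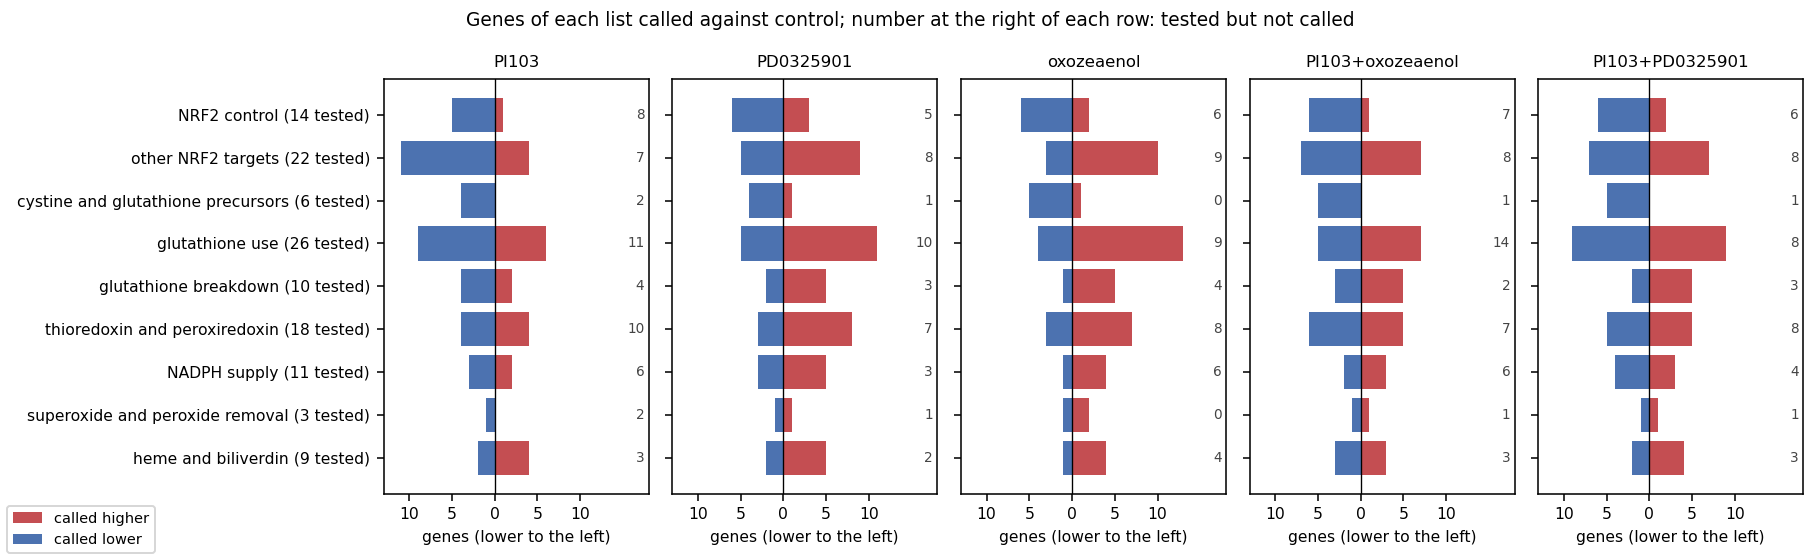
Number of genes of each list (rows) called higher (to the right) or lower (to the left) against control by edgeR in the 5 treatments (panels), with the number not called at the right edge. The precursor list has 4 or 5 genes to the left in every panel, and the list of other NRF2 targets has 11 lower with PI103 and 10 higher with oxozeaenol.

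Genes that use glutathione (26 of 28 tested) were called higher in 6 and lower in 9 with PI103, 11 and 5 with PD0325901, 13 and 4 with oxozeaenol, 7 and 5 in the oxozeaenol combination, and 9 and 9 in the PD0325901 combination. The shares called higher ran from 23.1% with PI103 to 50% with oxozeaenol (26.2% and 25.7% of all genes), those in the combinations were 26.9% and 34.6% (27.7% and 32.2%), and the list medians lay between -0.21 (PI103) and 0.26 (oxozeaenol). MGST3, a microsomal glutathione transferase, rose by 1.43 (adjusted p = 1.48e-08) with oxozeaenol and by 1.52 (adjusted p = 1.91e-09) in the PD0325901 combination. MGST2 rose by 0.81 (adjusted p = 0.000322) with PI103 and GSTA4 by 1.71 (adjusted p = 4.26e-08) with PD0325901. The mean of MGST2 was 174.9% of control with PI103 and 175% to 218% in the other treatments. GSTM4, of the mu class, fell by 2.38 (adjusted p = 1.26e-10) with PI103 and by 0.71 (adjusted p = 0.00118) with oxozeaenol, and its near-identical relatives make its counts uncertain. Among genes that break glutathione down (10 of 11 tested), 2 were called higher and 4 lower with PI103, 5 and 2 with PD0325901, 5 and 1 with oxozeaenol, 5 and 3 in the oxozeaenol combination, and 5 and 2 in the PD0325901 combination. With PI103 these are 20% and 40% of the list (26.2% and 25.2% of all genes, list median -0.05), and 50% were called higher elsewhere (25.7% to 32.2%), with medians of 0.25 to 0.53. CHAC1, which cleaves cytosolic glutathione, fell by 5.83 (adjusted p = 3.63e-08) with PI103, and its fall by 1.40 (adjusted p = 0.0109) with PD0325901 was no longer called without PD0325901 replicate 2 (-1.197, adjusted p = 0.0548). CHAC1 was also at 31.5% of control with oxozeaenol, and at 5.05% and 2.33% in the oxozeaenol and PD0325901 combinations. GGT7 rose by between 0.76 and 1.28 in all 5 treatments.

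In the thioredoxin and peroxiredoxin list (18 of 19 tested), 4 genes were called higher and 4 lower with PI103, 8 and 3 with PD0325901, 7 and 3 with oxozeaenol, 5 and 6 in the oxozeaenol combination, and 5 and 5 in the PD0325901 combination. With PI103 22.2% were called each way, near the 26.2% and 25.2% of all genes, while 44.4% were called higher with PD0325901 and 38.9% with oxozeaenol (28.7% and 25.7% of all genes). List medians lay between -0.14 (PI103) and 0.23 (PD0325901). TXNIP, which binds and inhibits thioredoxin, fell by 2.81 (adjusted p = 6.7e-10) with PD0325901 and by 3.24 (adjusted p = 1.86e-10) with oxozeaenol. TXNIP was also low with PI103, at 30.4% of control, and in the oxozeaenol and PD0325901 combinations, at 23.0% and 26.2%. SESN2, a sestrin, fell by 3.26 (adjusted p = 2.07e-10) with PI103. It was also at 28.9% of control with PD0325901, 23.1% with oxozeaenol, 10.25% in the oxozeaenol combination and 10.08% in the PD0325901 combination. PRDX2, a cytosolic peroxiredoxin, rose by 0.88 (adjusted p = 2.94e-08) with oxozeaenol, and MSRB2, a mitochondrial methionine sulfoxide reductase, rose by 0.96 (adjusted p = 2.06e-08) with PD0325901.

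Of 11 genes of NADPH supply, 2 were called higher and 3 lower with PI103, 5 and 3 with PD0325901, 4 and 1 with oxozeaenol, 3 and 2 in the oxozeaenol combination, and 3 and 4 in the PD0325901 combination. The PI103 shares of 18.2% and 27.3% compare with 26.2% and 25.2% of all genes, the PD0325901 shares of 45.5% and 27.3% with 28.7% and 29.9%, and the list medians lay between -0.03 and 0.17. IDH2, the mitochondrial NADP-dependent isocitrate dehydrogenase, rose in all 5, by 0.98 with PI103 up to 1.35 (adjusted p = 8.52e-12) in the oxozeaenol combination. MTHFD2 of mitochondrial folate metabolism fell by 3.21 (adjusted p = 5.1e-12) with PI103. It was also at 34.4% of control with PD0325901, 41.3% with oxozeaenol, 17.6% in the oxozeaenol combination and 9.02% in the PD0325901 combination. Of 3 tested genes that remove superoxide and peroxide, 1 was called lower in each treatment, and 0 to 2 were called higher. CAT, catalase, averaged 60.7 ± 5.32 CPM (SD, n = 4) over the controls, and PD0325901 libraries averaged 177 ± 37.7 CPM (SD, n = 4), a rise of 1.54 (adjusted p = 2.54e-10). It was called higher in every treatment other than PI103 alone (0.20 there), and SOD2, mitochondrial superoxide dismutase, was called lower in all 5, with changes from -0.28 to -0.51. The call of SOD2 with oxozeaenol was lost without control replicate 3 (adjusted p = 0.0627) or oxozeaenol replicate 4 (adjusted p = 0.102), and that with PD0325901 without control replicate 3 (adjusted p = 0.0531).

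The other genes of heme metabolism were called in both directions. Of 9 tested, 4 were called higher and 2 lower with PI103, 5 and 2 with PD0325901, 4 and 1 with oxozeaenol, 3 and 3 in the oxozeaenol combination, and 4 and 2 in the PD0325901 combination. Shares called higher were 33.3% to 55.6% (25.7% to 32.2% of all genes) and shares called lower 11.1% to 33.3% (25.2% to 32.6%), with list medians between -0.05 and 0.38. ALAD, an early enzyme of heme synthesis, rose by 0.85 (adjusted p = 1.24e-09) with PD0325901 and by 0.57 (adjusted p = 1.43e-06) with PI103, and UROS rose by 0.70 (adjusted p = 1.57e-06) with oxozeaenol.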

How the data were processed

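The authors deposited 1 table of whole-number read counts per gene symbol for 24 libraries. Per the labels' protocols, the libraries were made from 0.8 µg of total RNA with a stranded mRNA kit, and per the submitters' processing notes the genome build was GRCh38. Aligner, counting program, annotation and use of strand are not given in the sources used here. The table closes with tallies of unassigned reads (no feature, 4.24% to 8.57% of tallied reads per library; ambiguous, 1.57% to 2.01%; not unique, 4.64% to 6.06%), which were left out. Groups come from the sample titles. In the treatment field of later replicates the compound names are numbered upward, so that field was not used to form groups. Counts were filtered with filterByExpr (13947 of 23368 genes), scaled by TMM, and entered edgeR 4.0.16 under R 4.3.3 (glmQLFit, robust, 1 coefficient per group over all 24 libraries); 14 contrasts were tested two-sided, with Benjamini-Hochberg adjustment per contrast. SE was taken as the absolute log2 change over the root of F, and intervals are 95%. Log2 CPM used a prior count of 2. The labels call the replicate number a batch, so it pairs libraries. Deviations of same-numbered libraries of different groups from their group means had a mean correlation of 0.12 over 60 pairs, against -0.04 over 180 pairs of different numbers. The number is a block in 1 alternative fit. The others were 2 other scalings, no filter, DESeq2 1.42.0, fits of the compared groups alone, and leaving out each library. Nothing in the labels says that replicates were separate cultures, so p-values measure the spread between these libraries, which may be technical. No libraries agreed within counting noise. Members and gene lists were chosen with earlier results of these data known. Genes named from a list are those with the largest rise and fall per treatment among called genes with a mean of at least 5 CPM; for each member the 2 most correlated genes were named. A few genes that this rule selects are not reported here.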

Additional observations from a re-analysis of the deposited data

Results flagged for a closer look

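In 3 of 60 groups of 4 libraries (10 genes in 6 groups), 1 library lay far from the other 3 by Dixon's criterion at 95%; about 1 in 20 groups is expected by chance. GSR was 111 CPM in oxozeaenol replicate 4 against 141 to 145 CPM in the others. HMOX1 was 48.3 CPM in replicate 2 of PI103 with oxozeaenol against 43.2 to 43.8 CPM. GPX2 was 36.1 CPM in PD0325901 replicate 3 against 27.1 to 27.4 CPM. The cause was not tested.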

How the results depend on the processing

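Of the 50 member results against control, 40 kept their call in all 14 alternatives. Direction reversed in 0 of 700 alternative values, counting only genes called in the main or the alternative fit. Changes near 0 that were not called could change sign. With PI103, GCLC (-0.05 in the main fit) reached 0.03 and GSS (-0.01) reached 0.06. The 10 others were 3 of GCLC that lost the call and 1 that gained it, 3 of GSS, and 1 each of GSR, SRXN1 and NQO1. No alternative moved a change of a member by more than 1.12-fold. The replicate block called 9 members with oxozeaenol in place of 8, through SRXN1, 7 for PI103 with PD0325901 against PI103 in place of 5, and 6 against PD0325901 in place of 4, through NQO1, GSS and TXNRD1 as given above (GSS 0.0461); it changed no other call of a member. For PI103 with PD0325901 against PD0325901 the count was 2 with only the groups compared and 2 with upper-quartile scaling, and 2 to 4 when a library was left out. For PI103 with oxozeaenol against oxozeaenol it was 2 to 3 when a library was left out, and for PI103 with PD0325901 against the mean 3 to 6. Upper-quartile scaling moved the median of all genes from 0.00505 to 0.149 for PI103 with PD0325901; the directions of called members held under it. Without replicate 2 of PI103 with oxozeaenol, SLC7A11 changed by -5.36 in place of -4.25 and CHAC1 by -5.19 in place of -4.31. Depth limited no member, since the lowest held 14.01 CPM.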
